A study of Mus musculus with 8 samples.

Results

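Potassium channel genes were examined in MB21 cells, a mouse medulloblastoma line whose genotype is given as ptch mutant and which grows unattached. They were chosen by name alone, as the protein-coding genes whose symbol starts with Kcn followed by further letters and a number, which gave 93 of the 55416 genes counted. By class these were 40 voltage-gated genes, 15 inward rectifier genes, 14 tandem-pore genes, 8 calcium-activated genes and 16 genes for auxiliary subunits, which have no pore of their own. The calcium-activated class here includes the related genes Kcnt1, Kcnt2 and Kcnu1, whose channels are gated by sodium or pH. RNA sequencing libraries were made after 5 days with DS-1-38 at 10 uM, a compound derived from benzarone, or with its vehicle DMSO, 4 libraries each, called DS38 and DMSO here. Both groups share the cell line, its Ptch mutation and a medium with B27, and the vehicle cells are the only control. Nothing states that a group's libraries stem from different cultures, and the p-values therefore reflect only how far these libraries differ among themselves, which may be technical variation.

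Potassium channels let potassium leave or enter the cell and so set its resting voltage and shape its electrical firing. Voltage-gated channels open on depolarisation, inward rectifiers pass current best near the resting voltage, tandem-pore channels carry a steady leak, and calcium-activated channels couple the membrane to calcium inside the cell. Neurons exchange one set of subunits for another as they mature, and potassium channels also help to regulate the volume and division of proliferating cells. Medulloblastoma of the Hedgehog subgroup arises from granule neuron progenitors of the cerebellum, whose mature progeny are electrically active neurons.

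Library totals ran from 17142397 to 28476019 counts. The 93 genes took 0.0516% to 0.0578% of all counts in DMSO libraries and 0.0635% to 0.0678% in DS38 libraries. Kcnd3 alone had 4761 counts over the DMSO libraries and 8745 over the DS38 libraries. These are shares of plain totals, without the scaling factors used below, which were 0.975 to 0.984 in DMSO and 1.01 to 1.03 in DS38. In each library the progenitor markers Atoh1, Barhl1, Zic1 and Meis1 were expressed, whereas the microglial list summed to at most 0.520 CPM and the muscle list to at most 0.863 CPM. CPM are read counts scaled to a common library size, with edgeR's TMM factors. The libraries numbered 1 stood apart from the others of their group on the second principal component of all genes, so the counts below were also made without them.

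Of the 93 genes, 7 had no count in any library, 38 had counts but fell under edgeR's default filter on low counts, and 48 were tested. With edgeR's quasi-likelihood test, 13 of the 48 rose and 7 fell at a Benjamini-Hochberg adjusted p under 0.05, the adjustment running over all 15133 genes tested. Over all those genes 39.5% were called, 18.8% as higher and 20.7% as lower, so the 41.7% called among potassium channel genes is near the share of genes in general. The 4 DS38 libraries lay above all DMSO libraries for 13 genes and below them for 7 genes, while 36.1% of all tested genes had groups that did not overlap. The median log2 fold change was 0.04, against -0.01 over all genes tested. Without both libraries numbered 1, 10 rose and 6 fell. Among the called genes, 1 (Kcnj14) had no DMSO library at the cut-off of the filter. Markers of maturing neurons rose in the same libraries (5 of 7 tested, with values given at the end), and their part in these counts was not tested.

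Changes of at least 1.5-fold passed the test in 13 of the 48 genes (27.1%), against 7.56% of all genes tested. Potassium channel genes were expressed at lower levels, with a median of 2.47 CPM against 20.7 CPM over all tested genes. Under 1 CPM, 2 of 11 potassium channel genes passed at that size, near the 17.2% of all genes, and at 1 to 5 CPM 5 of 16 did, against 16.6%. At 5 to 20 CPM the count was 5 of 15 against 6.28% of all genes, and above 20 CPM it was 1 of 6 against 2.56%. These shares describe the list and were not tested. The plot of fold changes by class shows called rises and falls side by side among voltage-gated, inward rectifier and calcium-activated genes. In the calcium-activated class the called rise is that of Kcnt1, whose channel is gated by sodium. Among tandem-pore and auxiliary genes it shows called rises and no called fall.

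**Figure D1:**
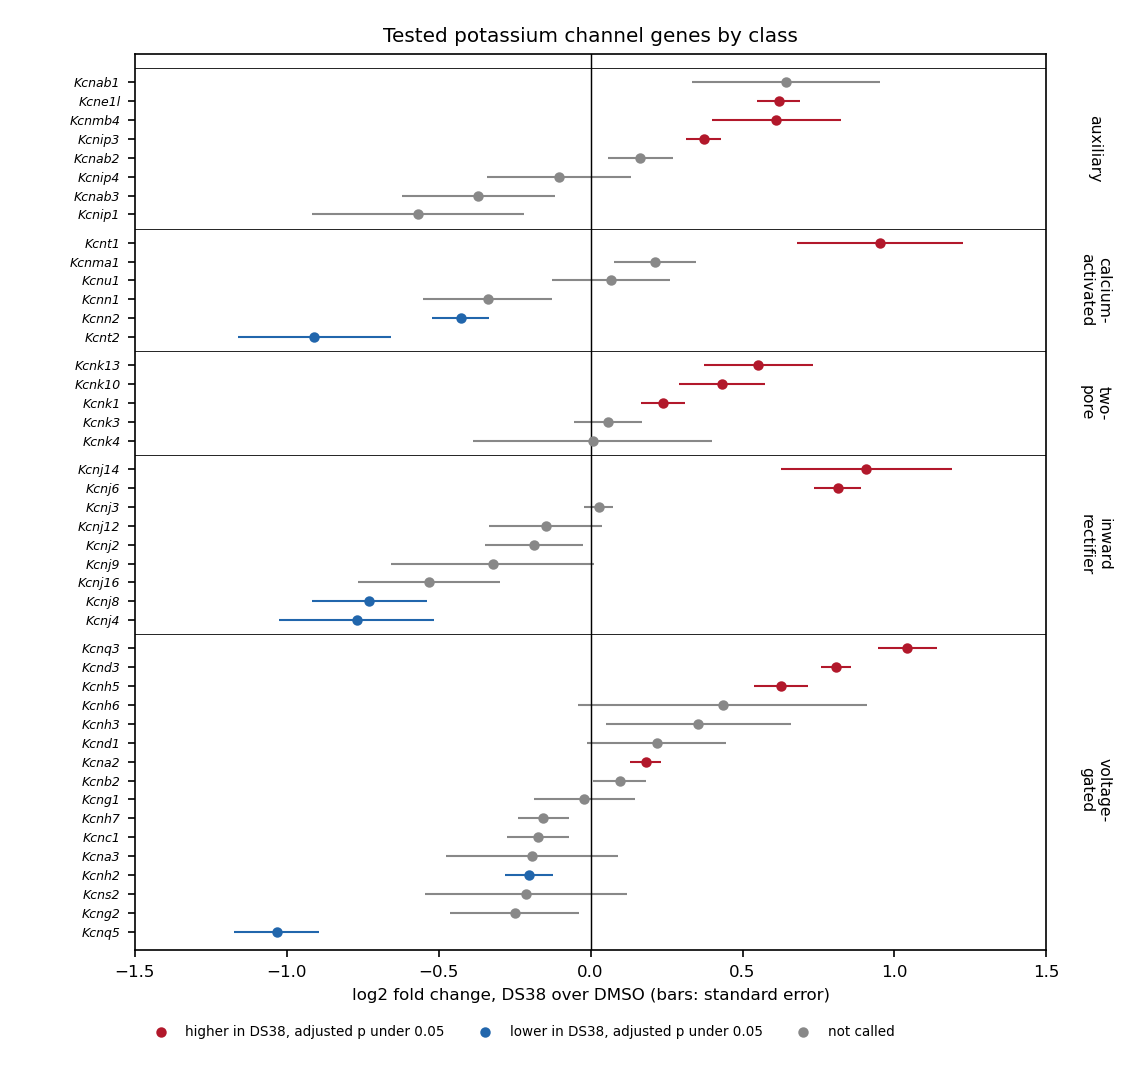
Log2 fold change of 44 of the 48 tested potassium channel genes, DS38 over DMSO, by class, with bars for the standard error. The tandem-pore genes carry their other name, two-pore, in the plot. Points in red rose, points in blue fell and grey points were not called; Kcnq3 and Kcnq5, both of the Kv7 subfamily, stand at opposite ends (1.04 and -1.03).

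Levels were compared between genes per length, as RPKM, which is CPM per kilobase of the gene length in the authors' table. Among the genes reported here, Kcna2, a Shaker-type channel gene, had the highest level in DMSO at 9.40 ± 0.801 RPKM (SD, n = 4). The Kv4 partner gene Kcnip3 followed at 9.20 ± 0.655 and the single-span subunit gene Kcne1l, also called Kcne5, at 8.20 ± 0.531. The levels of Kcna2 and Kcnip3 lay within their spread. In DS38 the order among them was Kcne1l at 12.6 ± 0.529 RPKM, Kcnip3 at 11.9 ± 0.684, Kcna2 at 10.6 ± 0.267 and Kcnd3 at 10.1 ± 0.623. Kcne1l and Kcnip3 overlapped in their spread, Kcna2 lay further below Kcnip3 than their spread, and Kcnd3 was within 1 SD of Kcna2.

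Summed over their members, voltage-gated genes stood at 44.0 ± 2.17 RPKM in DMSO and 49.5 ± 1.89 in DS38 (SD, n = 4 each). They made up 63.6% of the RPKM of the pore classes in DMSO and 64.7% in DS38. Inward rectifier genes summed to 13.5 ± 0.181 and 13.8 ± 0.348 RPKM, and tandem-pore genes to 9.13 ± 0.361 and 10.9 ± 0.257. Calcium-activated genes summed to 2.62 ± 0.235 and 2.29 ± 0.146 RPKM. Auxiliary subunit genes, which have no pore, summed to 20.3 ± 1.10 RPKM in DMSO and 27.8 ± 0.600 in DS38, a ratio of 1.37 and the largest of the 5 classes. Kcne1l (8.20 in DMSO and 12.6 in DS38) and Kcnip3 (9.20 and 11.9) made up most of both auxiliary sums and of their difference. These sums were not tested.

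Of the 20 tested voltage-gated genes, 4 rose, 3 fell and 13 were not called, with a median log2 fold change of 0.04. The share called was 35.0%, against 39.5% of all genes tested. Kcnd3, which encodes the Kv4.3 pore of the fast-inactivating A-type current, rose most clearly. Its level was 54.3, 52.9, 57.1 and 57.8 CPM in DMSO replicates 1 to 4 and 101.9, 100.2, 97.3 and 88.4 CPM in DS38 replicates 1 to 4. Every DS38 library was above every DMSO library, and the rise was 1.75-fold (log2 fold change 0.81 ± 0.049 SE, adjusted p = 5.21e-10 in edgeR). The related gene Kcnd2, an A-type subunit of mature granule neurons, was close to silent, with 25 counts over the DMSO libraries and 28 over the DS38 libraries. Kcnd1, the remaining Kv4 gene, stood at 1.08 ± 0.166 and 1.27 ± 0.245 CPM and was not called.

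Kcnd3os, a noncoding gene on the opposite strand at the start of Kcnd3, was looked at after its values were seen. It had 22 counts over the DMSO libraries and 71 over the DS38 libraries. None of its DMSO libraries and all 4 DS38 libraries reached the cut-off of the count filter, so that it entered the test only through the group where it is high, and no test of it is given. The strand setting of the authors' counting is not known, so reads of Kcnd3 and Kcnd3os that overlap cannot be told apart, although the counts of Kcnd3os are few beside those of Kcnd3. All 4 DS38 values of Kcnd3os, 0.653 to 0.987 CPM, lay above all DMSO values, 0.160 to 0.380 CPM.

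The Kv7 subfamily, whose channels carry the M-current that restrains repetitive firing, changed in opposite directions. Kcnq3 stood at 11.2, 8.47, 10.1 and 13.1 CPM in DMSO and at 22.2, 22.8, 22.4 and 20.6 CPM in DS38. The groups were far apart, with a rise of 2.06-fold (log2 fold change 1.04 ± 0.098 SE, adjusted p = 4.63e-07 in edgeR), the largest rise among tested potassium channel genes. Kcnq5, a relative that can also pair with Kcnq3, stood at 4.45, 4.52, 4.78 and 5.56 CPM in DMSO and at 2.59, 2.34, 2.13 and 2.29 CPM in DS38. Its groups were also apart, with a log2 fold change of -1.03 ± 0.140 SE (edgeR adjusted p = 1.39e-05), the largest fall among them.

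Per length, the ratio of Kcnq3 to Kcnq5 ran from 0.980 to 1.32 in DMSO and from 4.48 to 5.50 in DS38. This ratio restates the changes of both genes within each library and was not tested. In DMSO, Kcnq3 and Kcnq5 were close to equal per length, and in DS38 Kcnq3 was the higher of them in every library.

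**Figure D2:**
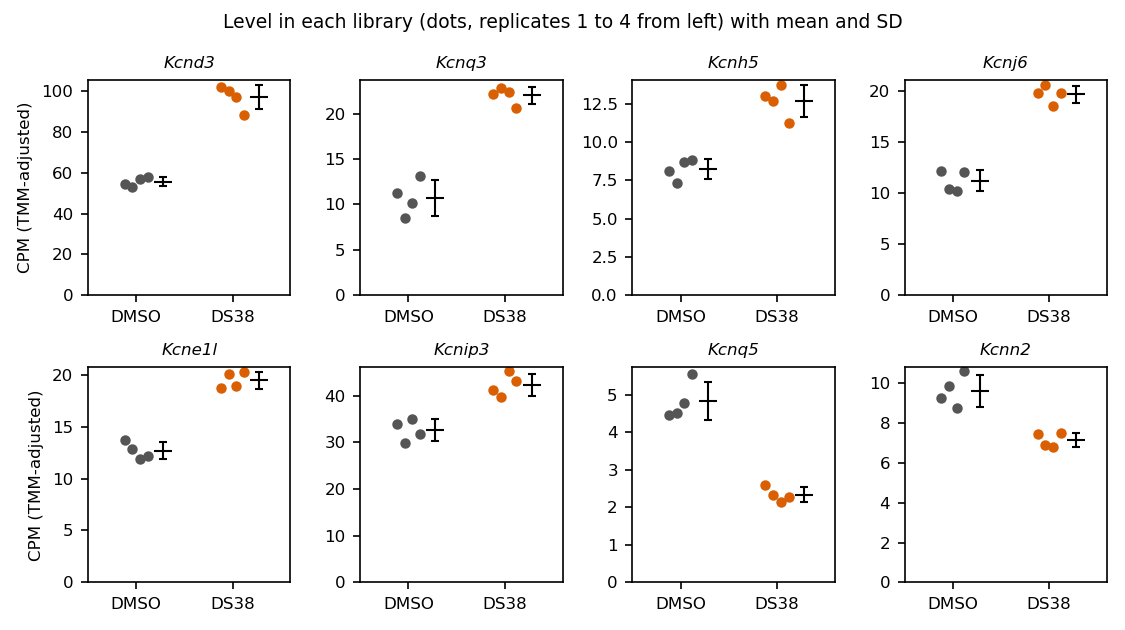
CPM of 8 potassium channel genes in each library, DMSO replicates 1 to 4 in grey and DS38 replicates 1 to 4 in orange, with the mean and SD beside them. The groups do not overlap in any panel; Kcnd3 runs from 52.9 to 57.8 CPM in DMSO and from 88.4 to 101.9 CPM in DS38.

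Kcnb2, a delayed rectifier gene, stood at 10.4 ± 0.984 and 11.1 ± 0.713 CPM and was not called (edgeR adjusted p = 0.415). Amigo1, a membrane protein gene whose product travels with Kv2 channels, fell (log2 fold change -0.28, edgeR adjusted p = 0.000391). Of the 10 genes for silent subunits, which form channels only together with Kv2 pores, 3 were tested and none was called; Kcng1 stood at 2.32 ± 0.122 and 2.29 ± 0.343 CPM.

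Among ether-a-go-go relatives, 1 of 5 tested genes rose and 1 fell. Kcnh5, which encodes the EAG2 channel, stood at 8.14, 7.34, 8.69 and 8.82 CPM in DMSO and at 13.04, 12.7, 13.8 and 11.3 CPM in DS38. All DS38 values were above the DMSO values, with a rise of 1.54-fold (log2 fold change 0.63 ± 0.090 SE, edgeR adjusted p = 2.61e-05). Kcnh2, the ERG channel gene, was the only one of the 20 called genes whose groups overlapped, at 18.9 to 21.9 CPM in DMSO and 14.8 to 19.2 CPM in DS38. The log2 fold change was -0.20 ± 0.079 SE, just past the threshold with an adjusted p = 0.0488 in edgeR. The call did not survive leaving out DMSO replicate 1, 2 or 3 (adjusted p of 0.102, 0.138 and 0.0778) or DS38 replicate 3 or 4 (0.186 and 0.0660), nor 7 other settings. Kcnh7, another relative, stood at 14.8 ± 1.19 and 13.2 ± 1.27 CPM and was not called.

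The changes in Kv1 genes were small. Kcna2 rose 1.13-fold, from 98.9 to 121.7 CPM in DMSO to 123.1 to 129.6 CPM in DS38, its groups close but not overlapping (edgeR adjusted p = 0.00986). Kcnc1, a gene of the fast Kv3 subfamily, stood at 12.8 ± 1.93 and 11.3 ± 1.02 CPM and was not called (edgeR adjusted p = 0.189). Of the 8 Kv1 genes only Kcna2 and Kcna3 passed the filter. Kcna1, a main Kv1 subunit of adult brain axons, had 1 count in DMSO and 3 in DS38.

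Of the 16 auxiliary subunit genes 8 were tested, of which 3 rose, none fell and 5 were not called, with a median log2 fold change of 0.27. The share called was 37.5%, near the 39.5% of all genes tested. Kcne1l, a single-span partner of several voltage-gated channels, stood at 13.7, 12.8, 11.9 and 12.2 CPM in DMSO and at 18.7, 20.1, 18.9 and 20.3 CPM in DS38. The groups were well apart, with a rise of 1.54-fold (log2 fold change 0.62, SE 0.070, adjusted p = 1.80e-06 in edgeR). Kcnip3, which encodes a calcium-binding protein that joins Kv4 channels and also acts as the transcriptional repressor DREAM, stood at 34.0, 29.8, 35.0 and 31.8 CPM in DMSO and at 41.1, 39.7, 45.3 and 43.1 CPM in DS38. It rose 1.29-fold without overlap (log2 fold change 0.37 ± 0.059 SE, edgeR adjusted p = 6.76e-05). Kcnd3 and its partner gene Kcnip3 therefore both rose, Kcnd3 by more, and the ratio of Kcnip3 to Kcnd3 per length was 1.49 to 1.69 in DMSO and 1.07 to 1.32 in DS38. Kcnip4 was near 1 CPM in both groups and was not called (edgeR adjusted p = 0.761).

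Kcnmb4, the beta subunit gene of neuronal large-conductance channels, stood at 1.05 ± 0.240 and 1.59 ± 0.0438 CPM (log2 fold change 0.61, edgeR adjusted p = 0.0293). Leaving out DMSO replicate 1, 2 or 4 ended this call (adjusted p of 0.0758, 0.0874 and 0.0638), as did leaving out DS38 replicate 2 (0.0724) or both libraries numbered 1 (0.0951). It also ended in DESeq2 (0.0737) and with the filter removed (0.0654). Kcnab2, a cytoplasmic partner of Kv1 channels, stood at 10.7 ± 2.08 and 12.1 ± 0.282 CPM and was not called. DMSO replicate 1 was its highest library at 13.7 CPM, and with it left out Kcnab2 was called (log2 fold change 0.31, adjusted p = 0.0119), as it was with both libraries numbered 1 left out (0.30, adjusted p = 0.0220).

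The DNA before the start of Kcnd3 and of Kcnip3 is shown because these genes encode a pore and its partner and rose together. The sequences are the 250 bases before a RefSeq start in build GRCm38.p6, an earlier build than the GRCm39 named in the submitters' processing notes, and capitals mark CAGCTG. This E-box reads the same on both strands and is a form bound by basic helix-loop-helix proteins.
Kcnd3, chr3:105451640-105451889, plus strand: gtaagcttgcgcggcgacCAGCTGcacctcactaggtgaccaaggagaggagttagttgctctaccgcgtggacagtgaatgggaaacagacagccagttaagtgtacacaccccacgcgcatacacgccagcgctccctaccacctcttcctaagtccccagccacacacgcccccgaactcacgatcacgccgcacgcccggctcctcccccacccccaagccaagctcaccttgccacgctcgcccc
Kcnip3, chr2:127522095-127522344, minus strand: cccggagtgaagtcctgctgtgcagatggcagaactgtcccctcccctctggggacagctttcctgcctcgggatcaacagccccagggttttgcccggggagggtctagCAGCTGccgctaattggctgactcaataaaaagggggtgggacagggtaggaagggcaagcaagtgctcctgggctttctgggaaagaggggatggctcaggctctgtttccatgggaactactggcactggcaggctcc
In the Kcnd3 window the E-box lies at base 19, and 88 of the bases belong to exons of Kcnd3os in GENCODE M21 on the other strand. In the Kcnip3 window, the one of its 3 RefSeq starts that holds an E-box, it lies at base 111.

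A RefSeq promoter entry was found for 68 of the 93 genes. CAGCTG was present before 4 of 10 genes that rose (Kcna2, Kcnd3, Kcne1l and Kcnip3), 0 of 5 that fell, 6 of 16 not called and 7 of 37 under the filter. It was in 4271 of all 32851 windows and in 22 of the 93 windows of potassium channel genes (23.7%). The Gli site GACCACCCA and the core of the Rest site, searched on both strands, were in none of the windows of these genes and in 0.225% and 0.0761% of all windows. The Atf4 composite site TGATGNAA was in 2 of the 93 windows, before Kcnab1 and Kcne2, and in 3.45% of all windows. A match is only a run of letters, and binding was not measured.

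Of the 9 tested inward rectifier genes, 2 rose, 2 fell and 5 were not called, with a median log2 fold change of -0.19. The share called was 44.4%, against 39.5% of all genes tested. Of the 2 called as higher, Kcnj14 passed the count filter only through DS38. Kcnj6 encodes GIRK2, a channel opened by G proteins downstream of inhibitory receptors. It stood at 12.1, 10.4, 10.2 and 12.03 CPM in DMSO and at 19.8, 20.5, 18.5 and 19.8 CPM in DS38. The DS38 libraries were all higher, and the rise was 1.76-fold (log2 fold change 0.81 ± 0.076 SE, edgeR adjusted p = 1.62e-07). Kcnj3, which encodes GIRK1 and needs a partner such as GIRK2, was the best expressed inward rectifier gene at 38.0 ± 0.571 and 38.7 ± 1.55 CPM and was not called (log2 fold change 0.03 ± 0.048 SE). The ratio of Kcnj6 to Kcnj3 per length ran from 0.182 to 0.223 in DMSO and from 0.318 to 0.375 in DS38. Kcnj9, another gene of this subfamily, stood at 0.619 ± 0.208 and 0.490 ± 0.147 CPM and was not called.

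**Figure D3:**
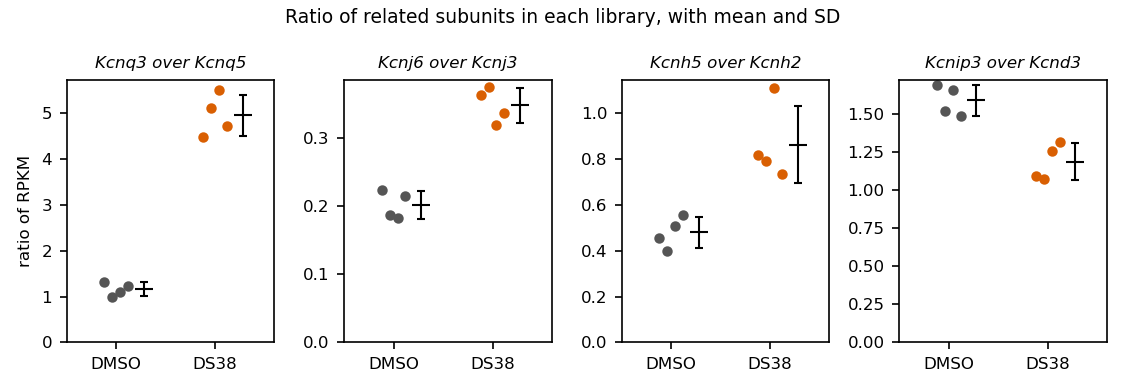
Ratio of the RPKM of relatives in each library, DMSO in grey and DS38 in orange, with mean and SD. Kcnq3 gained on Kcnq5, Kcnj6 on Kcnj3 and Kcnh5 on Kcnh2 (0.400 to 0.558 in DMSO, 0.734 to 1.11 in DS38), while Kcnip3 lost against Kcnd3; the groups do not overlap in these 4 panels, which were chosen after the values were seen.

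Kcnj8, the pore gene Kir6.1 of ATP-sensitive channels, stood at 4.01, 2.48, 2.34 and 3.42 CPM in DMSO and at 1.84, 1.99, 1.78 and 1.77 CPM in DS38. It fell (log2 fold change -0.73 ± 0.189 SE, adjusted p = 0.00507 in edgeR), with no overlap and with a spread in DMSO wider than in DS38. Kcnj11, the other pore gene of these channels, had no count in any library, so that a level of up to 0.175 CPM is possible in the library of least depth (counting error alone). Kcnj4, a strong inward rectifier gene, stood at 1.22 to 1.63 CPM in DMSO and 0.460 to 1.21 CPM in DS38, and fell by 0.77 on the log2 scale (adjusted p = 0.0227 in edgeR). Its groups nearly touched, and the call ended when DMSO replicate 2 or 3 (adjusted p of 0.0556 and 0.0589) or DS38 replicate 2 or 3 (0.0717 each) was removed. The class then had 1 fall in place of 2. Kcnj14 stood at 0.401 to 0.459 CPM in DMSO and 0.633 to 0.920 in DS38 (log2 fold change 0.91, edgeR adjusted p = 0.0153). None of its DMSO libraries reached the cut-off of the count filter, about 0.464 CPM of plain totals, and all 4 DS38 libraries did. It entered the test only through the group where it is high, so its call supports nothing about the class. The adjusted p was 0.0781 when both libraries numbered 1 were left out and 0.0644 in DESeq2. Kcnj2 and Kcnj12, further strong rectifier genes, stood at 7.40 ± 1.58 and 6.52 ± 1.23 CPM and at 2.34 ± 0.305 and 2.16 ± 0.440 CPM and were not called.

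Of the 14 tandem-pore genes 5 were tested, of which 3 rose, none fell and 2 were not called, with a median log2 fold change of 0.24. The share called was 60.0% of these 5 genes, against 39.5% of all genes tested. Kcnk1, which encodes the leak channel TWIK1, stood at 14.4, 15.2, 12.9 and 13.2 CPM in DMSO and at 16.5, 16.3, 15.9 and 17.2 CPM in DS38. It rose 1.18-fold without overlap (edgeR adjusted p = 0.0137), and at 6.23 ± 0.486 and 7.37 ± 0.246 RPKM it held most of the tandem-pore total. Kcnk10, a stretch- and lipid-sensitive channel gene of the TREK group, stood at 2.65 to 2.99 and 3.30 to 4.22 CPM (log2 fold change 0.43, edgeR adjusted p = 0.0213). Kcnk13, of the halothane-inhibited group, stood at 1.48 to 2.702 and 2.702 to 3.14 CPM, so that its groups met (log2 fold change 0.55, edgeR adjusted p = 0.0211).

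Both of these calls ended when DMSO replicate 2 was removed (adjusted p of 0.0587 for Kcnk10 and 0.0883 for Kcnk13), which left 1 rise in the class. Removing both libraries numbered 1 had the same result (0.0735 and 0.0566). Kcnk10 also missed the threshold with DS38 replicate 1 removed (0.0644), and Kcnk13 with DMSO replicate 3 removed (0.0550). Kcnk3, an acid-sensitive leak channel gene, stood at 6.77 ± 0.790 and 7.05 ± 0.613 CPM and was not called; its sign turned without DMSO replicate 2 (-0.02). Kcnk9, its relative in mature granule neurons, had 4 counts in DMSO and 8 in DS38. The ratio of Kcnk1 to Kcnk3 per length overlapped between the groups, at 3.28 to 4.80 in DMSO and 3.72 to 4.83 in DS38.

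Genes classed as calcium-activated were expressed at low levels, with 1 rise, 2 falls and 3 not called among 6 tested. The rise (Kcnt1) and 1 of the falls (Kcnt2) were of genes whose channels are gated by sodium, not calcium. Of the tested genes gated by calcium, Kcnn2 fell, and Kcnn1 and Kcnma1 were not called. Kcnn2, which encodes the SK2 channel that follows calcium entry with a slow hyperpolarisation, was the best expressed per length. It stood at 9.26, 9.86, 8.74 and 10.6 CPM in DMSO and at 7.44, 6.87, 6.79 and 7.48 CPM in DS38. The DS38 libraries were all lower, with a log2 fold change of -0.43 ± 0.093 SE (edgeR adjusted p = 0.00133). Kcnt1 and Kcnt2 encode related sodium-activated channels and moved in opposite directions. Kcnt1 stood at 0.962, 0.868, 0.272 and 0.765 CPM in DMSO and at 1.38, 1.58, 1.27 and 1.46 CPM in DS38 (log2 fold change 0.95 ± 0.274 SE, edgeR adjusted p = 0.0100). Kcnt2 stood at 1.00, 1.69, 1.09 and 1.43 CPM in DMSO and at 0.669, 0.722, 0.575 and 0.779 CPM in DS38 (log2 fold change -0.91 ± 0.252 SE, edgeR adjusted p = 0.00784). Neither gene's groups overlapped, and both are near 1 CPM. Kcnma1, the large-conductance pore gene, stood at 5.05 ± 0.863 and 5.78 ± 0.761 CPM and was not called (edgeR adjusted p = 0.225). Kcnu1, a pH-gated relative, stood at 1.76 ± 0.243 and 1.83 ± 0.314 CPM and was not called, with its sign turning without DMSO replicate 1 (-0.02) or DS38 replicate 4 (-0.02).

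The members close to silence were mostly counted more often in DS38. Of the 38 genes under the filter that had counts, 30 (78.9%) had a higher mean CPM in DS38, as had 66.4% of all 15799 such genes, and their counts summed to 184 in DMSO and 393 in DS38. Of those with at least 10 counts, a cut-off chosen after seeing the data, 16 of 16 were higher in DS38, against 66.5% of all 5920 such genes. When the filter was removed, edgeR called 4 of the 38 as higher and none as lower, whereas 2.18% of all genes under the filter were called, 1.91% as higher and 0.278% as lower. Over all genes with a count the share called without the filter was 19.7%. P-values of the fit without the filter are not comparable with those of the main test. For Kcnd3 the edgeR adjusted p was 1.69e-55 without the filter, against 5.21e-10 with it. The calls without the filter are therefore given as a description only. Kcne2, Kcnf1, Kcnh4 and Kcnn3 had an unadjusted p under 0.05 without a call.

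The 4 called were Kcnh1, which encodes the EAG1 channel, Kcnk2, the TREK1 leak channel gene, Kcng4, a silent subunit gene, and Kcnj10, the Kir4.1 gene typical of glia. Kcnk2 had 2, 6, 2 and 4 counts in DMSO and 11, 11, 10 and 12 in DS38 (adjusted p = 0.00896 in edgeR without the filter). Its DS38 libraries were all higher, as were those of Kcng4, with 10 counts over DMSO and 35 over DS38 (adjusted p = 0.0152). Kcnh1 had 20 and 57 counts (adjusted p = 0.00655), with DMSO replicate 4 above DS38 replicates 1 and 4. Kcnj10 had 1, 7, 1 and 3 counts in DMSO and 13, 20, 3 and 1 in DS38 (adjusted p = 0.0302), and its difference rested on DS38 replicates 1 and 2.

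**Figure D4:**
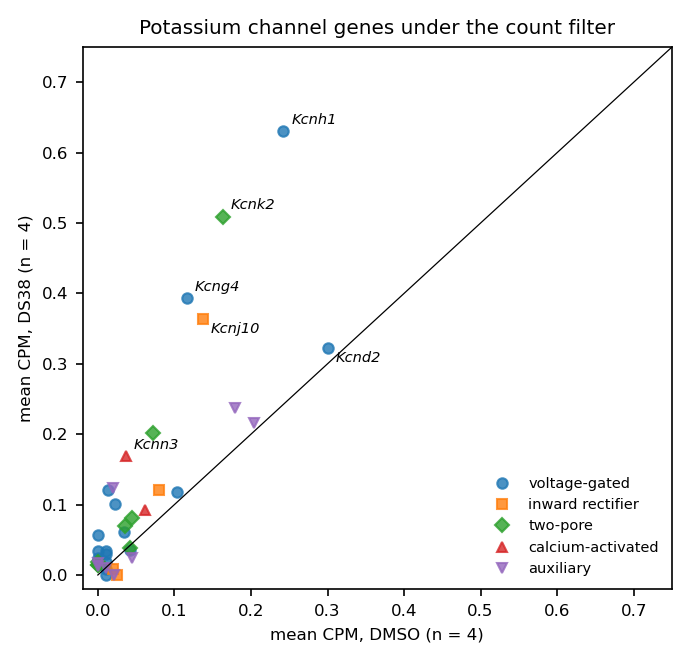
Mean CPM in DMSO (horizontal) and in DS38 (vertical) of the 38 potassium channel genes that had counts but fell under the filter, n = 4 libraries each, with a line where both are equal. Most points lie above the line, with Kcnh1, Kcnk2, Kcng4 and Kcnj10 farthest from it.

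Among the other genes of potassium handling, the list of channel partners outside the Kcn names gave 4 rises, 2 falls and 7 not called of 13 tested. This list also holds Rest and its cofactor genes Rcor1 and Rcor2, which are not channel partners. Rest was among the rises (log2 fold change 0.17, edgeR adjusted p = 0.00504), and Rcor1 and Rcor2 were not called. Over all genes tested 39.5% were called, 18.8% as higher and 20.7% as lower, which also bears on the lists below. Nedd4l, a ubiquitin ligase gene that limits several channels at the membrane, rose (log2 fold change 0.37, edgeR adjusted p = 3.91e-07), as did Ank3, which encodes the ankyrin G that anchors Kv7 channels at the axon start (0.49, edgeR adjusted p = 0.000967). Potassium pumps and cotransporters gave 1 rise, 4 falls and 8 not called of 13 tested. The potassium chloride cotransporter gene Slc12a4 went from a mean of 54.7 CPM to one of 35.8 CPM (log2 fold change -0.61, edgeR adjusted p = 1.53e-08), the pump regulator gene Fxyd6 fell (-0.22, edgeR adjusted p = 0.00121) and the pump beta subunit gene Atp1b1 rose (0.50, edgeR adjusted p = 0.00148). The hyperpolarisation-activated channel genes Hcn2 and Hcn3, the only tested members of their list, were not called.

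Markers of cell types moved in the same comparison, in which 18.8% of all genes tested were called higher and 20.7% lower. Of 8 progenitor markers 5 rose, among them Atoh1 (log2 fold change 0.60) and Barhl1 (0.71), and Zic1 (-0.16) and Gli1 (-0.60) fell. Of 9 markers of maturing neurons, 7 were tested and 5 rose, among them Cntn2 (log2 fold change 0.90), Syt1 (0.47) and Snap25 (0.40), and the list summed to 448.3 to 463.6 CPM in DMSO and 597.1 to 605.2 CPM in DS38. Rbfox3 and Neurod1 were not called, and the mature granule neuron genes Gabra6 and Grin2c were near 0 at means up to 0.117 CPM. In bulk samples, more cells of a type and more RNA per cell cannot be told apart, and the part of these markers in the potassium channel changes was not tested. The astrocyte list, in which Gfap was called higher and Slc1a3 lower, summed to 119.1 to 123.9 CPM in DMSO and 111.8 to 115.1 CPM in DS38, with Aqp4 near 0. Slc1a3 made up most of that sum, at means of 119.1 and 108.7 CPM, while the median log2 fold change of the tested members was 0.39. Fgfr3, also called higher in that list, had 1 DMSO library at the filter's cut-off. The oligodendrocyte lineage list, in which Pdgfra fell, summed to 84.3 to 90.5 and 61.9 to 66.7 CPM, with Sox10 near 0. Pdgfra made up most of that sum, at means of 73.2 and 51.0 CPM, and the other tested members were not called. The fibroblast list summed to 2.50 to 3.21 and 3.97 to 4.98 CPM; Col1a1, called higher in it, reached the cut-off in no DMSO library. The peripheral neuron list, in which Prph, Isl1 and Pou4f1 rose, summed to 112.4 to 121.1 and 151.0 to 156.8 CPM. The endothelial list summed to at most 1.79 CPM with Cldn5 and Rgs5 at 0 counts.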

How the data were processed

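RNA was measured in 8 libraries, 4 per group. The deposited values are whole-number read counts per gene, not normalized by the authors, with each gene's length in bases in another column. Per the submitters' processing notes, the authors used edgeR, featureCounts of Subread 2.0.3, the aligner STAR 2.7.9a and R 4.1.0. Builds named there are GRCh38.p13 and GRCm39. How strand and reads matching several places were handled is not given in the sources used here, so near-identical, overlapping or antisense genes can share reads.

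Symbols were matched for 52083 of 55416 identifiers, with biotypes from GENCODE M21 (GRCm38), and 5 antisense genes that fit the name pattern were left out. The test was edgeR 4.0.16 under R 4.3.3 (quasi-likelihood, robust, TMM, filterByExpr with a minimum of 10 counts) over 15133 genes, after a check on simulated data. Standard errors are the log2 fold change over the square root of F. Depth was 17142397 to 28476019 counts, and floors are 3 counts of the plain total, counting error only. Alternatives used DESeq2 1.42.0, limma 3.58.1 and other filters, scalings, blocks and library sets. Classes and lists were chosen with earlier results of these data known. Named were, per class, up to 5 called genes in each direction with the smallest p, the 2 with the highest RPKM and a fixed set, and up to 3 called genes per partner list. Kcnd3os, Kcnh1, Kcnk2, Kcng4, Kcnj10, other relatives of named genes and the cell type markers given as examples were named after their values were seen. So were Rest, Rcor1 and Rcor2. Some genes are not reported here, although they are in the counts by class.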

Additional observations from a re-analysis of the deposited data

Results flagged for a closer look

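One value stood far from the others of its group. Kcnmb4 was at 1.41 CPM in DMSO replicate 3, whereas the other 3 DMSO libraries lay at 0.912 to 0.969 CPM and the DS38 libraries at 1.55 to 1.65 CPM. The gap was 0.887 of the range of the group, above Dixon's critical value for 4 samples. In all, 52 groups of 26 genes were examined and chance marks about 1 in 20, so a single mark is fewer than chance would give.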

How the results depend on the processing

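Of 26 named potassium channel genes tested, 16 kept their direction and their side of the threshold under each of the alternatives that tested them, up to 19 per gene. Kcnd3, Kcnq3, Kcnh5, Kcnj6, Kcne1l, Kcnip3, Kcnq5 and Kcnn2 were among them. The counts of genes called stayed within 1.5 times, at 10 to 16 rises and 5 to 8 falls, except with a filter of 50 counts in 4 libraries, which tested 27 genes. That filter gave 4 falls in all, and by class 1 rise and 1 fall of inward rectifier genes and 0 rises and 1 fall of calcium-activated genes. DESeq2 and leaving out both libraries numbered 1 each gave 1 rise of inward rectifier genes, and the latter 1 rise of tandem-pore genes. With 1 library left out, inward rectifier falls ran from 1 to 2 and tandem-pore rises from 1 to 4. Directions that turned, all of genes not called, were, with 1 library left out, those of Kcnk3 (-0.0242 to 0.115), Kcnu1 (-0.0243 to 0.179) and Kcnip4 (-0.228 to 0.000406).

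The replicate block gave 13 rises and 7 falls, as without it. The numbers were not taken to pair samples, since deviations of libraries with the same number correlated at 0.33, -0.07, 0.07 and -0.08. Longer genes had higher log2 fold changes in these libraries, with a Spearman's rho of 0.223 (genes are not independent replicates), and potassium channel genes tested were the longer ones (median 5030 bases against 3975). A length offset gave 13 rises and 8 falls, with or without the block. Genes under 1 CPM rest on few counts. Calls were also lost in some settings for genes at higher levels, such as Kcnh2 and Kcnk10, and the cause was not tested.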
